A study of Mus musculus with 19 samples.

Results

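This report follows the serine proteases of the trypsin, kallikrein, HtrA and proprotein convertase families in mouse mammary luminal cells (LCs). It also follows the plasminogen activators with their receptor, the serpins and the Kunitz-type inhibitors. Most serpins and the Kunitz-type inhibitors block such enzymes. Members were the genes whose name on the array starts with Tmprss, Pcsk, Klk, Prss or Serpin followed by the number or letter of a family member, is Htra1 to Htra4, or is St14, Hpn, Plau, Plat, Plaur, Spint1 or Spint2. Of 168 such genes on the array, 76 were well above background on 4 or more of the 19 arrays and are described here, among 20689 genes of any kind that passed the same filter. The 92 others did not pass this filter: 42 were well above background on no array, and 7 missed the filter by 1 array (Klk1b11, Prss33, Prss42, Serpina1f, Serpina3c, Serpini1 and Tmprss7). Just inside it lay Serpina9, detected on 4 arrays, while 45 members were detected on all 19.

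The cells were CD24+CD29lo LCs sorted from the mammary glands of female C57Bl/6N mice, and each array carried the RNA of 1 mouse on a 1-colour Agilent chip. C451A-ERα mice carry estrogen receptor α with the palmitoylation site cysteine replaced by alanine, a change that keeps the receptor from the membrane; wild-type mice carry the normal receptor. All mice were ovariectomized at 24 days of age by the labels (the study's text gives a slightly later day), received a hormone pellet 10 days later and were 8 weeks old after 21 days of treatment. The pellet released estradiol (E2, 0.01 mg over 60 days) alone, in wild-type mice L50, L52, L67 and L72 (n = 4) and in the mutant mice L4, L27, L51, L58 and L76 (n = 5), or E2 with progesterone (E2+Pg, 1.5 mg of progesterone over 60 days), in wild-type mice L21, L44, L47, L57 and L62 (n = 5) and in the mutant mice L18, L53, L56, L61 and L63 (n = 5). The mutation is in every cell of the animal, so the luminal cells of a mutant gland developed beside mutant basal cells and stroma. The question put to these arrays was what the loss of membrane ERα changes in the luminal transcriptome under either hormone treatment.

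Serine proteases cut other proteins with a serine in their active site, and most are made as inactive zymogens that another protease must cut. Membrane-anchored members such as matriptase (St14), hepsin (Hpn) and prostasin (Prss8) work at the surface of epithelial cells, the plasminogen activators turn plasminogen into plasmin, which degrades matrix, and HtrA proteases, kallikreins and proprotein convertases process matrix proteins, desmosomal proteins, growth factors and hormones. Most serpins, but not all, are suicide inhibitors that trap their protease in a covalent complex, and Kunitz-type inhibitors (Spint1 and Spint2) block the active site reversibly. In the mammary gland these enzymes are known from ductal growth and from involution, when the gland remodels after weaning.

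Values are log2 median fluorescence signals after quantile normalization, with 1 probe a gene. They are not compared between genes, since probes differ in brightness. A gene was called when its fold change exceeded 1.5 and limma's adjusted p lay under 0.05. Every array had between 26471 and 31258 probes well above background and no saturated spot, and the 7 pan-luminal markers tested (Krt8, Krt18, Krt19, Epcam, Cldn3, Cldn4 and Cd24a) all passed the filter, as did the 8 basal, 6 fibroblast and 7 immune markers. Esr1 itself lay between 9.26 and 11.60 over the 19 mice, and its probe cannot tell the mutant allele from the normal one. Over 20667 genes, 16 of the 19 arrays lay nearer the mean of their own group than the mean of the other genotype under the same treatment. The exceptions were the mice labelled wild-type L72 (r = -0.13 with its own group, r = 0.55 with C451A-ERα under E2), C451A-ERα L4 (r = -0.14 and 0.04) and C451A-ERα L18 (r = -0.34 and 0.50), correlations across genes that are not independent of each other. Counts of calls, and the values these 3 mice moved most, are given with and without them; leaving them out favours a difference between genotypes, since they were chosen for lying near the other genotype. In bulk RNA of sorted cells, fewer cells of a type and less RNA per cell cannot be told apart.

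The 6 comparisons share their control mice, so their values are given side by side, and replicates are separate mice. Averaged over both treatments, 9 of the 76 members were lower in C451A-ERα than in wild-type LCs and none was higher. They were the kallikrein Klk6, the secreted proteases Htra1 and Htra3, the convertase Pcsk1, the membrane-anchored proteases Tmprss6, Tmprss11a, Tmprss11e and Tmprss11g, and the serpin Serpina3n, with fold changes from 1.53 (Serpina3n) to 7.57 (Tmprss11a). Over all genes tested, 2.30% were called in this comparison, 1.94% lower and 0.358% higher. At an unadjusted p under 0.05, 21 members were lower and 8 higher, against 18.3% of all genes in either direction. The median log2 fold change was -0.09 over the 76 members and 0.00 over all genes. With the slide as a block, 4 of the 9 were called, Klk6, Htra1, Pcsk1 and Tmprss11g, and the adjusted p of Htra3, Serpina3n, Tmprss11a, Tmprss11e and Tmprss6 rose to between 0.0737 and 0.0935. The same 4 genes were called from Agilent's processed signal and with no filter on low signal, where the other 5 lost their call. All 9 were called with L4, L18 and L72 left out together, a choice that by itself favours genotype calls.

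**Figure D1:**
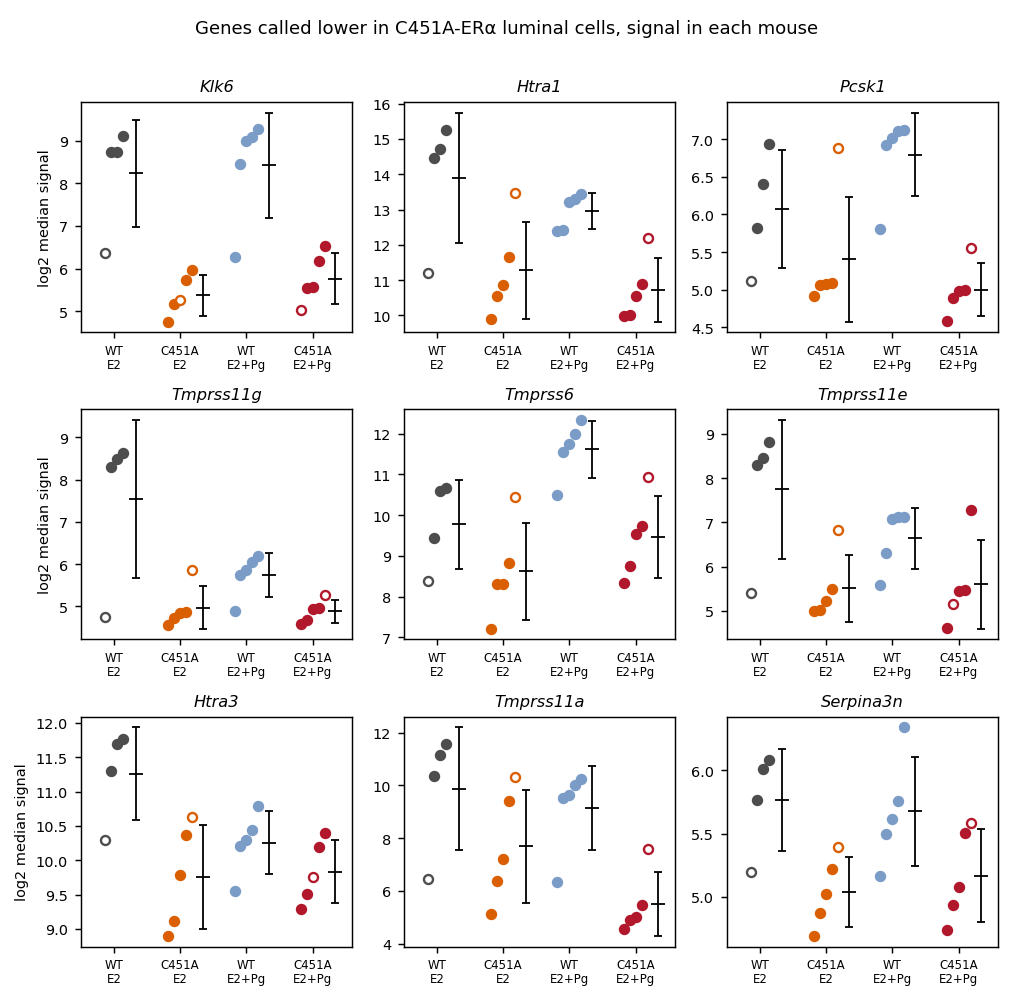
Log2 median signal in each mouse for the 9 genes called lower in C451A-ERα LCs averaged over both treatments. Points are mice, open points are mice L72, L4 and L18, and the bars to the right of each group are its mean ± SD (n = 4 or 5). For Klk6, all C451A-ERα mice lie at or below 6.53, while 7 of the 9 wild-type mice lie at or above 8.46.

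Klk6, a kallikrein that cuts matrix and cell adhesion proteins, had the smallest p of all members. Its probe lies at chromosome 7, 51086977 to 51087036, in the mm9 coordinates of the array file. Under E2 its log2 signal was 8.73, 9.10, 8.74 and 6.36 in wild-type mice L50, L52, L67 and L72, and 5.26, 4.75, 5.97, 5.17 and 5.74 in C451A-ERα mice L4, L27, L51, L58 and L76. Under E2+Pg it was 6.27, 8.46, 9.27, 9.09 and 9.0 in wild-type mice L21, L44, L47, L57 and L62, and 5.02, 5.58, 5.54, 6.17 and 6.53 in C451A-ERα mice L18, L53, L56, L61 and L63. The groups did not overlap under E2, and under E2+Pg only wild-type mouse L21 fell into the range of the mutant mice. The average difference was -2.75 ± 0.40 (SE; adjusted p = 0.00953), a 6.74-fold lower signal. This call stood with each of the 19 mice left out in turn (adjusted p at most 0.0413) and was lower on all 4 slides that held every group. In C451A-ERα mice the probe was well above background in 2 of 5 mice under E2 and 4 of 5 under E2+Pg, so the lower level is close to the limit of detection.

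Htra1, a secreted protease that degrades matrix proteins and dampens TGF-β signaling, differed in the same direction. Its signal under E2 was 14.46, 14.71, 15.26 and 11.19 in wild-type mice L50, L52, L67 and L72, and 13.47, 11.65, 10.85, 9.90 and 10.56 in C451A-ERα mice L4, L27, L51, L58 and L76. Under E2+Pg the wild-type mice lay between 12.38 and 13.45 and the C451A-ERα mice between 9.98 and 12.19, with no overlap. Under E2 wild-type mouse L72 alone lay within the range of the mutant mice. The average difference was -2.42 ± 0.51 (adjusted p = 0.0223), or 5.36-fold, called with 16 of the 19 mice left out in turn and lost without wild-type mouse L67, L50 or L52 (adjusted p up to 0.067). Both Htra1 probes gave the direction (log2 fold change -2.42 and -2.18). Htra3, its paralog, averaged -0.97 ± 0.26 (adjusted p = 0.0461), with 10.30 to 11.77 in wild-type and 8.90 to 10.62 in C451A-ERα mice under E2, and overlapping ranges of 9.55 to 10.79 and 9.30 to 10.40 under E2+Pg. The mitochondrial member Htra2 had a log2 fold change of -0.14 (adjusted p = 0.712).

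Of the 13 membrane-anchored proteases, 4 were called lower and none higher. Tmprss11a, Tmprss11e and Tmprss11g belong to a group of airway trypsin-like proteases whose genes lie side by side. Tmprss11a read 10.35, 11.55, 11.14 and 6.45 in wild-type mice L50, L52, L67 and L72 under E2, and 10.33, 9.40, 7.20, 5.11 and 6.39 in C451A-ERα mice L4, L27, L51, L58 and L76. Under E2+Pg it read 6.35, 10.03, 10.22, 9.50 and 9.64 in wild-type mice L21, L44, L47, L57 and L62, and 7.59, 5.45, 4.99, 4.89 and 4.57 in C451A-ERα mice L18, L53, L56, L61 and L63. Single mice of either genotype thus lay at the level of the other one under both treatments. The average difference of -2.92 ± 0.78 (adjusted p = 0.0467) was the largest in size of the 76 members, and its call was made in 2 of 7 other ways of processing (adjusted p up to 0.0756).

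Tmprss11g under E2 was at 8.50, 8.63 and 8.29 in wild-type mice L67, L50 and L52 but at 4.74 in L72, against 4.56 to 5.85 in the C451A-ERα mice. Under E2+Pg it lay between 4.88 and 6.19 in wild-type mice and was not well above background in any C451A-ERα mouse (4.57 to 5.26), at least 1.57-fold lower there by the lowest signal counted as well above background, with adjusted p = 0.368. The average difference was -1.71 ± 0.39 (adjusted p = 0.0273). Tmprss11e gave an average difference of -1.64 ± 0.43 (adjusted p = 0.0455). Under E2 it read 8.29 to 8.82 in wild-type mice other than L72 (5.42) and 5.01 to 6.82 in C451A-ERα mice. Under E2+Pg the genotypes overlapped, with 5.58 to 7.12 in wild-type and 4.62 to 7.29 in C451A-ERα mice. The highest signal under E2+Pg was in C451A-ERα mouse L53. Tmprss11b, a member of the same group chosen after its values were seen, had a log2 fold change of -0.26 (adjusted p = 0.234).

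Tmprss6 encodes matriptase-2, which is known for cutting the hepcidin coreceptor hemojuvelin in liver. In LCs it read 9.44, 10.60, 10.67 and 8.38 in wild-type mice L50, L52, L67 and L72 under E2, and 10.45, 8.30, 8.30, 7.21 and 8.82 in C451A-ERα mice L4, L27, L51, L58 and L76. Under E2+Pg the values were 10.49, 11.54, 12.33, 11.98 and 11.74 in wild-type mice L21, L44, L47, L57 and L62, and 10.94, 9.73, 8.74, 9.53 and 8.33 in C451A-ERα mice L18, L53, L56, L61 and L63. Only C451A-ERα mouse L18 reached the wild-type range under E2+Pg. The average difference was -1.66 ± 0.43 (adjusted p = 0.0413), and its second probe gave -1.04.

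Pcsk1, the convertase of the regulated secretory pathway that cleaves prohormones, was low in most mice. It was well above background in 3 of 4 wild-type mice under E2 (5.12 to 6.94) and all 5 under E2+Pg (5.81, 7.12, 7.02, 7.10 and 6.92 in L21, L44, L47, L57 and L62), but in 1 of 5 C451A-ERα mice under either treatment. Under E2+Pg the C451A-ERα mice lay between 4.58 and 5.55, below every wild-type mouse, whereas under E2 mouse L4 at 6.89 stood with the wild-type mice. The average difference was -1.23 ± 0.28 (adjusted p = 0.0257). Serpina3n, a secreted inhibitor of the α1-antichymotrypsin family, was near background (4.69 to 6.34) and differed by -0.62 ± 0.17 (adjusted p = 0.0478), a call made in 1 of the 6 other ways of processing that measured it (adjusted p up to 0.0987); the Serpina3 genes are near-identical copies, so a probe may read more than 1 of them.

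**Figure D2:**
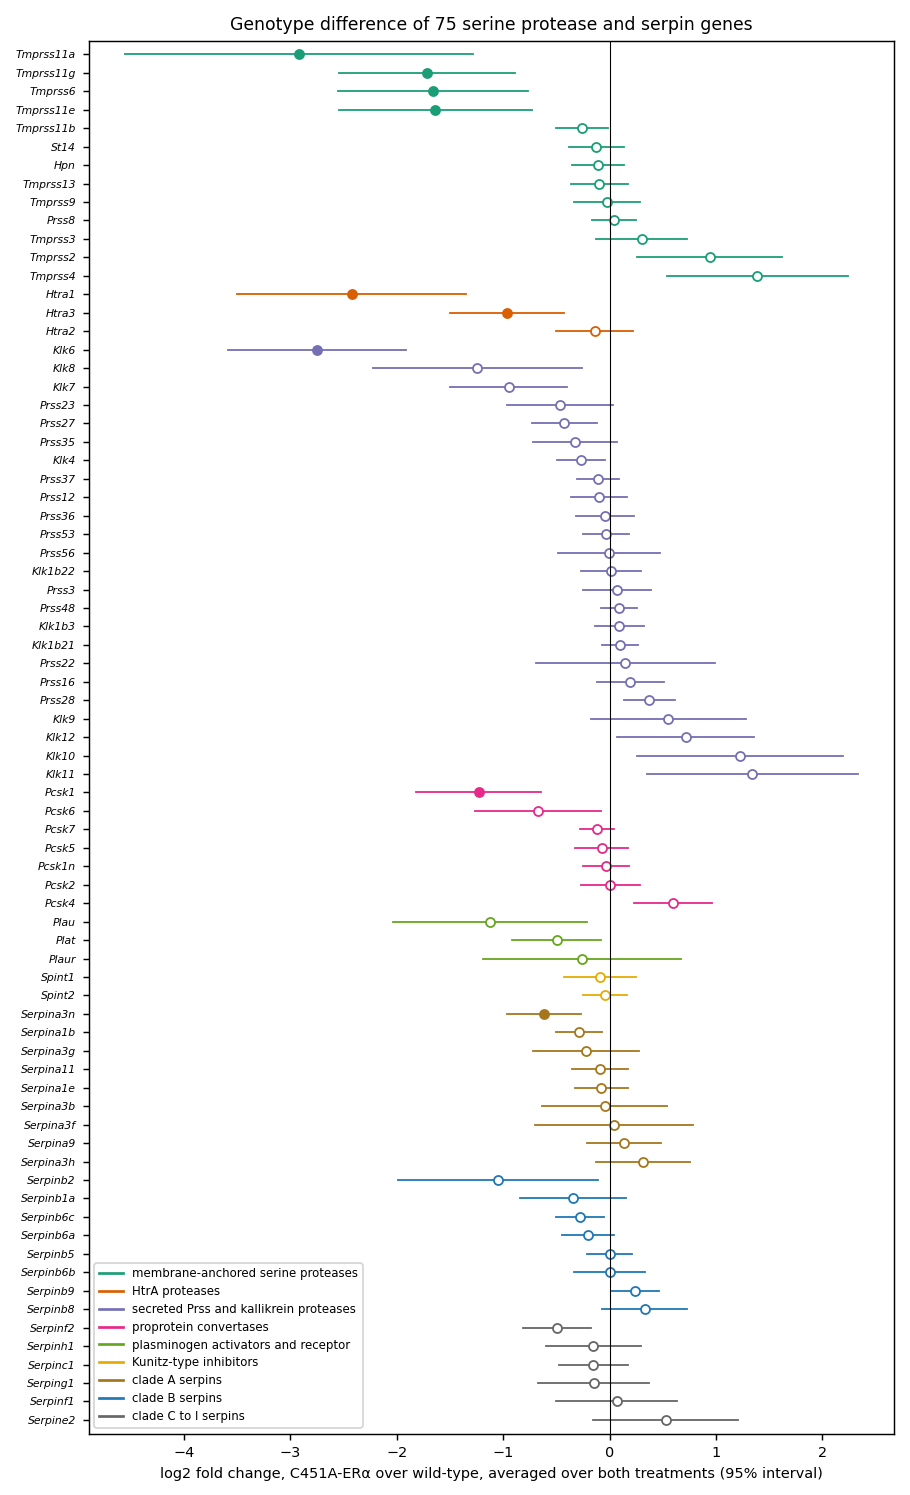
Log2 fold change of C451A-ERα over wild-type LCs, averaged over both treatments, for 75 of the 76 members measured, grouped by role. Points are limma estimates, lines their 95% intervals, and filled points the 9 members called. The filled points all lie left of 0, from Tmprss11a at -2.92 to Serpina3n at -0.62.

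The promoters of the 4 called members with the smallest p and of Serpina3g, the single member called for progesterone, are shown because these genes moved with genotype or hormone and both receptors bind DNA. Each is the 250 bases before a transcription start in RefSeq (GRCm38.p6), 5′ to 3′ on the gene's strand, with any match to the progesterone receptor hexamer TGTTCT or the estrogen receptor hexamer AGGTCA, on either strand, in capitals.
Klk6, upstream start, chr7:43824294-43824543, plus strand: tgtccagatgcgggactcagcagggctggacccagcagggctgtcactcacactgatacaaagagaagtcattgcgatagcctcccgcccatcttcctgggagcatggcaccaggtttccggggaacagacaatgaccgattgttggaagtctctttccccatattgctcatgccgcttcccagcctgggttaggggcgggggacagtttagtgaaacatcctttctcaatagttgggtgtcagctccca
Klk6, downstream start, chr7:43825200-43825449, plus strand: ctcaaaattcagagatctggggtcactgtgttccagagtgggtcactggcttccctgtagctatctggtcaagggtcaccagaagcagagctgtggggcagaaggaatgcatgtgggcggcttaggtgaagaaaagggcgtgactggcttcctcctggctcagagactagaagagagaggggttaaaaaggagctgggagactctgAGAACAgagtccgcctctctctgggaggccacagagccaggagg
Htra1, chr7:130935953-130936202, plus strand: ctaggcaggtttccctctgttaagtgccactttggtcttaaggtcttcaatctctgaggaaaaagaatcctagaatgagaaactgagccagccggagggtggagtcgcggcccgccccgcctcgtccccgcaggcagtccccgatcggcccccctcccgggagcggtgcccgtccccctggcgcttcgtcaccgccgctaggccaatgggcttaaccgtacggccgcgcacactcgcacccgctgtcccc
Pcsk1, chr13:75089607-75089856, plus strand: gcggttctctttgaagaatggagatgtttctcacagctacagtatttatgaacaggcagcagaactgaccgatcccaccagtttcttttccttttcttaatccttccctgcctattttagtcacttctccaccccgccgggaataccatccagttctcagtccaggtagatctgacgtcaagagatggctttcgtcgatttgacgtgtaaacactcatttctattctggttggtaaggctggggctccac
Tmprss11g, chr5:86518601-86518850, minus strand: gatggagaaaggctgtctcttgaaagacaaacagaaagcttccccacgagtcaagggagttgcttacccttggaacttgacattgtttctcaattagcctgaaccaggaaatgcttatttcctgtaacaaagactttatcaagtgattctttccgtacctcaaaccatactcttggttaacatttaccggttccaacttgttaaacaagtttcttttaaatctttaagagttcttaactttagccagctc
Serpina3g, chr12:104235897-104236146, plus strand: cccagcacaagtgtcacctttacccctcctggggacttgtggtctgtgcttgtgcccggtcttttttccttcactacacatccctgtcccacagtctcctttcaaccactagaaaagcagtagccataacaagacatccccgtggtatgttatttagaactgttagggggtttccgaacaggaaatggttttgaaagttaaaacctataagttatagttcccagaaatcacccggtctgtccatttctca

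The only match in these 6 promoters was a progesterone receptor hexamer on the reverse strand in the downstream start of Klk6. Of 32851 RefSeq promoters of this length, 16.1% held the progesterone receptor hexamer and 14% the estrogen receptor hexamer. The palindromic progesterone response element, the hexamer and its inverse with 3 bases between, was in 0.00913% and the palindromic estrogen response element in 0.0213% of them, and neither was in the 9 promoters found for 8 of the 10 called members. Tmprss6 and Tmprss11e had no entry. These are matches of letters within 250 bases and leave other motifs and distances unsearched.

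Under E2 alone, no member was called between genotypes, and 0.0290% of all genes were. The 6 members with the smallest p were Klk6 (log2 fold change -2.86 ± 0.58), Tmprss11g (-2.57 ± 0.57), Htra3 (-1.50 ± 0.37), Plat (-1.08 ± 0.29), Tmprss4 (2.12 ± 0.59) and Tmprss11e (-2.23 ± 0.63), with adjusted p between 0.106 and 0.134. At an unadjusted p under 0.05, 16 members were lower and 5 higher, against 13.6% of all genes in either direction. The wild-type and C451A-ERα mice did not overlap for 5 members, Klk6, Serpinb6c and Serpinf2 (lower) and Pcsk4 and Serpinb9 (higher), against 3.52% of all genes; the smallest two-sided exact permutation p that 4 mice against 5 allow is 0.00794. These counts rest on mouse L72: without it 13 members were called. Of these, 10 were lower (Htra1, Htra3, Klk6, Plat, Plau, Prss27, Serpina3n, Serpinb6c, Tmprss11e and Tmprss11g) and 3 higher (Pcsk4, Tmprss2 and Tmprss4). Without L4, L18 and L72 the count was 17. Shares of all genes called in these refits are not given here, so neither count is read as particular to the members.

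Tmprss4 and Tmprss2, transmembrane proteases known from their activation of viral and cellular surface proteins, read higher in most mutant mice under E2. Tmprss4 read 7.64, 8.33, 7.80 and 10.97 in wild-type mice L50, L52, L67 and L72, and 10.03, 11.38, 11.06, 10.49 and 11.07 in C451A-ERα mice L4, L27, L51, L58 and L76. Tmprss2 read 9.27, 9.77, 9.89 and 11.83 in the same wild-type mice, and 10.19, 11.92, 11.87, 11.88 and 11.85 in the same C451A-ERα mice. For both genes every wild-type mouse but L72 lay below all C451A-ERα mice. With all mice the differences were 2.12 ± 0.59 (adjusted p = 0.13) and 1.35 ± 0.47 (adjusted p = 0.208), and averaged over both treatments Tmprss4 gave 1.39 ± 0.40 (adjusted p = 0.0671). Without L72 the differences under E2 were 2.88 (adjusted p = 0.00169) and 1.90 (adjusted p = 0.0116), both called.

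Under E2+Pg, again no member was called between genotypes, with 0.00483% of all genes called. Klk6 (-2.65 ± 0.55), Pcsk1 (-1.79 ± 0.38), Tmprss6 (-2.16 ± 0.58), Tmprss11a (-3.65 ± 1.07), Htra1 (-2.23 ± 0.70) and Klk11 (1.83 ± 0.65) had the smallest p, with adjusted p from 0.108 to 0.195. At an unadjusted p under 0.05, 12 members were lower and 4 higher, against 18.3% of all genes. Htra1 and Pcsk1 did not overlap between genotypes (exact permutation p = 0.00794 each), against 2.61% of all genes. Without C451A-ERα mouse L18, 10 members were called: Htra1, Klk6, Pcsk1, Pcsk6, Serpina3g, Tmprss11a and Tmprss6 lower, and Klk10, Klk11 and Klk12 higher. For this refit, too, the share of all genes called is not given here.

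The kallikreins Klk4 and Klk6 to Klk12, neighbours on chromosome 7, did not move as a block. The array's coordinates (mm9) put Klk12, Klk11, Klk10, Klk9, Klk8, Klk7, Klk6 and Klk4 in this order between 51028889 and 51141045; apart from Klk6 and Klk11 they were looked at after their values were seen. With E2+Pg, log2 fold changes ran 1.09 for Klk12, 1.83 for Klk11, 1.72 for Klk10 and 0.93 for Klk9, then -1.62 for Klk8, -1.01 for Klk7 and -2.65 for Klk6, and -0.12 for Klk4, none called. The 3 Klk1b genes measured, farther along the same chromosome, had log2 fold changes of 0.10 (Klk1b21), 0.10 (Klk1b22) and 0.16 (Klk1b3); they are close copies of each other, and their probes may read more than 1 gene. Klk11, a kallikrein of stratified epithelia, was at 8.37, 6.76, 7.34, 7.32 and 7.77 in wild-type mice L21, L44, L47, L57 and L62, and at 6.79, 9.74, 10.12, 10.54 and 9.51 in C451A-ERα mice L18, L53, L56, L61 and L63. The mutant mice other than L18 thus lay above all wild-type mice. Klk7, which cuts corneodesmosomal proteins in skin, averaged -0.95 ± 0.26 over both treatments and missed the call (adjusted p = 0.0536). Under E2 it was well above background in 3 of 4 wild-type mice and in no C451A-ERα mouse. Its mean signal under E2 was 1.85-fold lower in C451A-ERα mice, a value that rests on signals near background. The Tmprss11 genes of chromosome 5 lie in the order Tmprss11a, Tmprss11g, Tmprss11b and Tmprss11e between 86839457 and 87134388, and the first, second and last of them were those called.

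**Figure D3:**
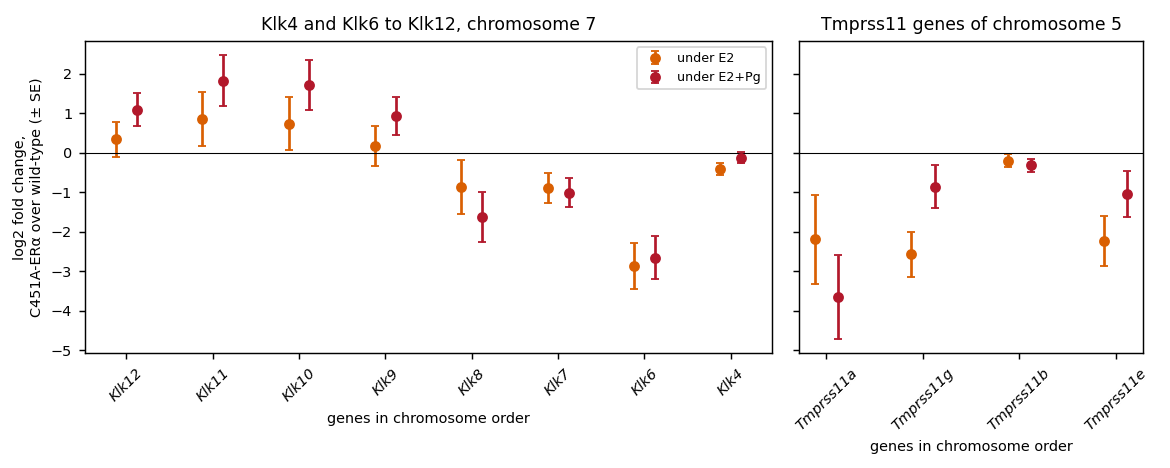
Log2 fold change of C451A-ERα over wild-type LCs (± SE from limma) under E2 and under E2+Pg, for the kallikreins Klk4 and Klk6 to Klk12 of chromosome 7, without the Klk1b genes, and the Tmprss11 genes of chromosome 5 in chromosome order. Klk9 to Klk12 are above 0 and Klk6 to Klk8 below 0 under both treatments.

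Markers of other cell types were read beside these genes, since epidermis makes several of them. Of 9 epidermal markers 7 passed the filter (not Flg and Dsg1a), and the mean deviation of the 7 from their average over all mice ranged from -0.04 to 0.86 in wild-type and -0.55 to 0.21 in C451A-ERα mice under E2, and from -0.41 to 0.29 and -0.57 to 1.04 under E2+Pg. All 7 had a negative log2 fold change averaged over both treatments (median -0.14), and Lor, a cornified envelope protein, was called lower (-1.27 ± 0.27, adjusted p = 0.0224). By treatment the list differed: under E2 all 7 were negative (median -0.45), 3 of them at an unadjusted p under 0.05 (Calm4 -1.93, Krtdap -1.26 and Lor -0.87), and under E2+Pg 5 of 7 were positive (median 0.20) while Lor was at -1.67. Krt1 and Krt10, the keratins of differentiated epidermis, had log2 fold changes of -0.42 and -0.22 under E2 and 0.40 and 0.20 under E2+Pg. No marker of the list was called within either treatment. Among the wild-type mice under E2, L72 had the highest Krt1 (7.69) and Krt10 (10.15). Only these keratins of the list are given for this mouse, and they do not stand for the whole list. Of the 8 hormone-sensing luminal markers, Cited1 was called higher (1.27 ± 0.33) and Prom1 lower (-0.66 ± 0.16) in C451A-ERα LCs, and none of the 8 basal markers was called. The part of these cells in the protease differences was not tested.

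The plasminogen system showed no call in any of the 6 comparisons with all mice. Urokinase (Plau) under E2 was at 12.50, 12.37, 12.66 and 9.66 in wild-type mice L50, L52, L67 and L72, and at 9.96, 8.68, 10.56, 10.22 and 10.48 in C451A-ERα mice L4, L27, L51, L58 and L76. Every wild-type mouse but L72 thus exceeded all C451A-ERα mice, and the difference was -1.82 ± 0.63 (adjusted p = 0.206), or -2.53 without L72 (adjusted p = 0.0131). Under E2+Pg the difference was -0.44 ± 0.60, with wild-type mice spread from 8.68 to 11.86 and C451A-ERα mice from 9.19 to 10.55. Tissue plasminogen activator (Plat) under E2 was at 8.76, 7.62, 8.02 and 7.41 in wild-type mice L50, L52, L67 and L72, and at 6.68, 6.61, 7.03, 6.55 and 7.53 in C451A-ERα mice L4, L27, L51, L58 and L76 (-1.08 ± 0.29, adjusted p = 0.125; without L72 -1.25, adjusted p = 0.0233). Under E2+Pg its genotype difference was 0.08 ± 0.27, and the interaction of genotype and progesterone, 1.15 ± 0.40, did not pass (adjusted p = 0.472). The urokinase receptor Plaur ranged from 11.12 to 14.15 among the C451A-ERα mice under E2+Pg alone and averaged -0.26 ± 0.44. Serpine2, a serpin that blocks both activators, averaged 0.53 ± 0.33, with C451A-ERα mouse L63 at 12.17 against 9.07 to 9.89 in the other mice of its group.

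**Figure D4:**
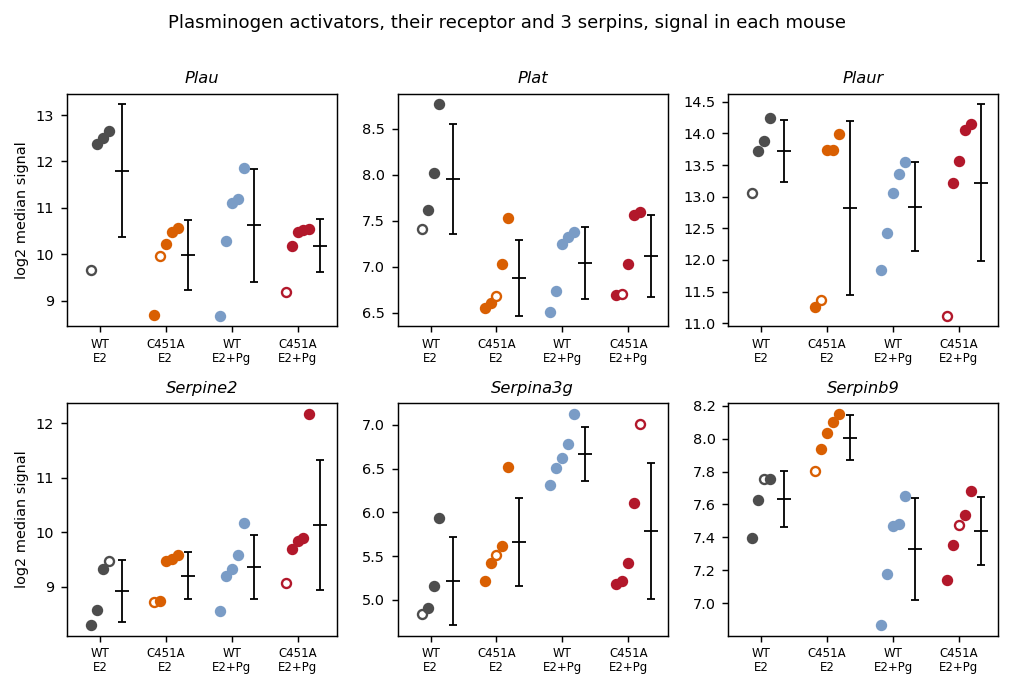
Log2 median signal in each mouse for Plau, Plat, Plaur, Serpine2, Serpina3g and Serpinb9. Points are mice, open points are mice L72, L4 and L18, and bars are the group mean ± SD (n = 4 or 5). Serpina3g in wild-type mice lies at 6.31 to 7.12 under E2+Pg and at 4.85 to 5.93 under E2.

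No gene of the matriptase circuit of the epithelial surface was called for genotype. Matriptase (St14) averaged -0.13 with a 95% interval of -0.38 to 0.13, its activator prostasin (Prss8) 0.04 (-0.17 to 0.24), hepsin (Hpn) -0.11 (-0.36 to 0.13), and the inhibitors Spint1 -0.09 (-0.43 to 0.25) and Spint2 -0.04 (-0.25 to 0.16). Serpinb5, or maspin, a clade B serpin of mammary epithelium, gave 0.00 (-0.21 to 0.21). Within groups, St14 and Spint1 ran lowest in C451A-ERα mouse L18 (12.22 and 13.16) under E2+Pg, and in L4 and L27 (11.97 and 12.12 for St14) under E2. Pcsk6, a convertase that activates growth factors of the TGF-β family, gave -0.67 (-1.26 to -0.08; adjusted p = 0.204).

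By role, none of the 8 clade B serpins, 7 serpins of clades C to I, 2 Kunitz-type inhibitors or 3 genes of the plasminogen system was called for genotype. Called were 4 of 13 membrane-anchored proteases, 2 of 3 HtrA proteases and 1 of 24 other Prss and kallikrein proteases. So were 1 of 9 clade A serpins and 1 of 7 Pcsk genes (Pcsk1). The 7 include Pcsk1n, which encodes an inhibitor of Pcsk1 and no convertase. In this comparison, averaged over both treatments, 2.30% of all genes tested were called, 1.94% lower. With the slide as a block, only Klk6, Htra1, Pcsk1 and Tmprss11g of these genes were called. Protease genes thus made up 8 of the 9 calls, and genes of the serpin and Kunitz-type families 1. The difference between these shares was not tested.

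Progesterone was then compared within each genotype. In wild-type LCs 1 of the 76 members was called, Serpina3g, against 1.33% of all genes. At an unadjusted p under 0.05, 5 members were higher and 8 lower, against 16.3% of all genes. Serpina3g encodes an intracellular serpin that blocks cathepsins and is induced in activated lymphocytes. Its signal was 5.93, 4.91, 5.16 and 4.85 in wild-type mice L50, L52, L67 and L72 under E2, and 7.12, 6.51, 6.79, 6.31 and 6.62 in L21, L44, L47, L57 and L62 under E2+Pg. The groups did not overlap (1.45 ± 0.35, 2.74-fold, adjusted p = 0.0424, exact permutation p = 0.00794). It was well above background in 1 of 4 mice under E2 and all 5 under E2+Pg, and the call stood in 7 of the 19 fits with 1 mouse left out (adjusted p from 0.0116 to 0.158). In C451A-ERα LCs the difference was 0.13 ± 0.33, with mouse L18 at 7.01 and the other E2+Pg mice at 5.18 to 6.11; the interaction, -1.33 ± 0.48, did not pass (adjusted p = 0.472). The other members by smallest p in wild-type LCs were Plat (-0.91 ± 0.29), Tmprss11g (-1.80 ± 0.57), Prss23 (-1.03 ± 0.34), Tmprss6 (1.84 ± 0.62) and Htra3 (-1.01 ± 0.37), with adjusted p from 0.12 to 0.184. Plat and Serpina3g were the 2 members whose groups did not overlap, against 8.69% of all genes. With the slide as a block the adjusted p of Serpina3g was 0.077. Without L72, Tmprss11g was the 1 member called (-2.73), and Serpina3g gave 1.33 (adjusted p = 0.0717).

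In C451A-ERα LCs no member was called for progesterone, while 2.46% of all genes were. At an unadjusted p under 0.05, 3 members were higher and 4 lower, against 18.4% of all genes. Serpinb9, an intracellular inhibitor of granzyme B, had an adjusted p of 0.0398 but a fold change of 1.48, under the limit. It read 7.80, 8.15, 7.94, 8.10 and 8.04 in C451A-ERα mice L4, L27, L51, L58 and L76 under E2, and 7.47, 7.36, 7.68, 7.14 and 7.54 in L18, L53, L56, L61 and L63 under E2+Pg. Prss12, or motopsin, a protease first known from neurons, read 7.82 to 8.03 under E2 and 8.15 to 9.09 under E2+Pg (0.62 ± 0.17, adjusted p = 0.0573). These were the 2 members without overlap, against 5.04% of all genes. Tmprss2 was lower by 1.51 ± 0.45 (adjusted p = 0.072), Tmprss4 gave -1.45 ± 0.56, Prss36 -0.49 ± 0.18 and Klk11 1.72 ± 0.65, none called with all mice. Without L4, Tmprss2 (-1.85, limma adjusted p = 0.0334) and Serpinb9 (-0.62, adjusted p = 0.047) were called. Tmprss4 (-1.65, adjusted p = 0.174) was still not called there. Hormone-sensing luminal markers moved beside these values: all 8 had negative log2 fold changes for progesterone in both genotypes (median -0.85 in wild-type and -1.17 in C451A-ERα), and Pgr, Ly6a, Prom1 and Foxa1 were called lower in C451A-ERα LCs. Whether they have a part in the protease values was not tested. No member was called for the interaction of genotype and progesterone, nor was any gene (0%); at an unadjusted p under 0.05, 6 members were positive and 1 negative, against 9.37% of all genes.

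Genes around these enzymes were read from lists of related genes. Of 16 other serine protease inhibitors tested, 3 were called for genotype: Spink2, a Kazal-type inhibitor, was lower (-3.78 ± 0.85, adjusted p = 0.0257), Slpi, the secretory leukocyte peptidase inhibitor, was lower (-3.00 ± 0.78, adjusted p = 0.043), and Spink1 was higher (0.81 ± 0.20, adjusted p = 0.0372). Spink2 ranged from 6.63 (L72) to 12.89 over the wild-type mice and from 5.41 to 10.20 over the C451A-ERα mice. Slpi was at 10.52 in L72 and 10.81 in L21, and at 14.66 to 15.75 in the other wild-type mice. Over the C451A-ERα mice it ranged from 9.94 to 14.11 (L4). Of 31 other serine proteases, the complement proteases C2 (-1.58 ± 0.26, adjusted p = 0.016) and Cfb (-0.90 ± 0.24, adjusted p = 0.0479) were lower and none was higher. The genotypes overlapped for both. C2 read 9.95 (L21) to 12.41 in wild-type and 9.29 to 10.90 in C451A-ERα mice. Cfb read 6.66 (L72) to 8.65 in wild-type and 6.10 to 7.94 (L4) in C451A-ERα mice. Of 17 substrates and partner enzymes, Tgfb1 was lower (-0.65 ± 0.15, adjusted p = 0.0257), and of 18 genes of plasmin, coagulation and protease-activated receptors none was called. For progesterone, Itih2, whose product binds hyaluronan and is named for its inhibitor complex, was lower in both genotypes (-1.34 ± 0.31 in wild-type, -2.11 ± 0.29 in C451A-ERα). Reck (0.68 ± 0.15) and Masp2 (0.63 ± 0.15) were higher in wild-type LCs, and Spink5 (0.94 ± 0.17) and Met (0.89 ± 0.24) in C451A-ERα LCs. Slpi, Cfb and Met were added after their values were seen.

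**Figure D5:**
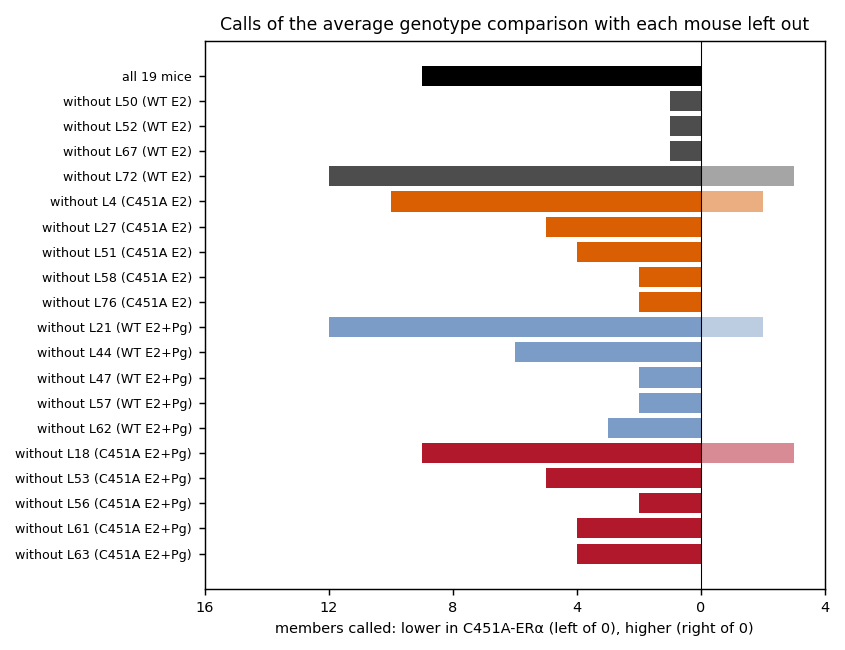
Number of members called in the genotype comparison averaged over both treatments, for all 19 mice and with each mouse left out in turn. Bars left of 0 count genes lower and bars right of 0 genes higher in C451A-ERα LCs, coloured by the group of the mouse left out. The count is 9 with all mice, 1 without L50, L52 or L67, and 15 without L72. The share of all genes called in each fit is not shown.

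How many members were called depended on single mice. Without wild-type mouse L67, L50 or L52 only Klk6 was called for the average genotype difference, and without L72 the count was 15 (12 lower, 3 higher). Without L21 it was 14, and without L4 or L18 it was 12 each. All 9 genes called with all mice were called again without L72, L4 or L21, and 7 of them without L18. Leaving out L4, L18 and L72 together gave 20 calls, 14 lower and 6 higher. How many of all genes were called in each of these fits is not given here. The counts therefore do not set the members apart from other genes.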

How the data were processed

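RNA of sorted LCs from 19 mice was hybridised to 1-colour Agilent arrays. The deposited files hold Feature Extraction intensity values (version 10.10.1.1 per the submitters' processing notes), unnormalized, and a value table of log2 values that the authors filtered, corrected for batch and quantile-normalized; their washing and labelling batches are not in the labels used here. Here, log2 median signals were quantile-normalized without control spots. Genes well above background on 4 or more arrays were kept, with the brightest probe a gene. limma 3.58.1 in R 4.3.3 was fitted to the 4 group means over all 20689 genes with Benjamini-Hochberg adjustment. Called means an adjusted p under 0.05 and a fold above 1.5. The fit recovered changes of known size on simulated data, for the average genotype comparison and with independent noise in each gene. The simulation held no mice that shift many genes together, so it does not bear on the calls that depend on single mice. Exact permutation tests were two-sided. The number of arrays limits the precision. All arrays had the same scan day; 4 of the 5 slides held every group.

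Named were called members, the 6 members of smallest p in each comparison of 2 groups, 13 well-known members, and at most 8 called genes of the related lists. The members and lists were chosen with earlier results of these data known. Of the 76 members, 71 matched RefSeq by accession, and the values of 1 are not reported here. Alternatives were the slide as a block, other background corrections and filters, the mean of a gene's probes, array weights, fits on only the groups compared, the authors' value table (30207 probes, median 7.77 in every column, r at least 0.998 with the scanner signal; its centring is not stated) and each mouse left out. Leaving out L4, L18 and L72 together was chosen after seeing the data.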

Additional observations from a re-analysis of the deposited data

Results flagged for a closer look

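Dixon's test for a single distant mouse, run on 29 named genes in 4 groups each, marked 20 of 116 groups. Mouse L72 was the distant one in 6 of them, L18 and L4 in 4 each, L21 in 3, and L50, L58 and L63 in 1 each. The test marks about 1 in 20 by chance when groups are independent. Here the genes share the same mice and many were chosen from these data, so the count is not read against that rate.

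In wild-type mice under E2, L72 stood apart for Klk6 (log2 signal 6.36, nearest mouse 8.73), Plau (9.66, nearest 12.37), Tmprss11e (5.42, nearest 8.29) and Tmprss11g (4.74, nearest 8.29), and above its group for Hpn (11.21, nearest 10.85) and Spint2 (13.04, nearest 12.76). L50 was low for Spint1 (13.66, nearest 14.03). In C451A-ERα mice under E2, L4 was high for Pcsk1 (6.89, nearest 5.08), Tmprss11e (6.82, nearest 5.49) and Tmprss11g (5.85, nearest 4.87) and low for Tmprss2 (10.19, nearest 11.85), and L58 was low for Hpn (10.87, nearest 11.07). In wild-type mice under E2+Pg, L21 was low for Klk6 (6.27, nearest 8.46), Pcsk1 (5.81, nearest 6.92) and Tmprss11a (6.35, nearest 9.50). In C451A-ERα mice under E2+Pg, L18 was low for Klk11 (6.79, nearest 9.51), Plau (9.19, nearest 10.18), Serpinb5 (13.43, nearest 13.87) and Spint1 (13.16, nearest 14.06), and L63 was high for Serpine2 (12.17, nearest 9.89).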

How the results depend on the processing

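No called direction reversed under any alternative, but counts of called members moved. Shares of all genes called under these alternatives, or with mice left out, are not given here. The counts thus do not show whether the members moved more than other genes. For genotype averaged over both treatments (9 with all mice) the count was 4 with the slide as a block, 4 from Agilent's processed signal, 4 with no filter, 3 with detection required on all arrays and 24 with array weights; it was 7, 7 and 11 with normexp, the mean of a gene's probes and the authors' value table. Under E2 (0) it was 3 from the value table (Klk6, Tmprss11g and Tmprss4) and 21 with array weights, and under E2+Pg (0) it was 12 with array weights. For progesterone in wild-type LCs (1) it was 0 with the slide as a block, 0 with no filter, 0 with detection on all arrays and 10 with array weights. In C451A-ERα LCs (0) it was 1 from the processed signal, 1 with normexp, 1 with detection on all arrays, 1 with array weights and 2 from the value table (Prss12 and Tmprss2). Array weights were lowest for L4 (0.242), L27 (0.285) and L18 (0.301).

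With mice L4, L18 and L72 left out together, chosen after seeing the data, the counts were 17 under E2, 14 under E2+Pg, 20 on average, 6 and 1 for progesterone in wild-type and C451A-ERα LCs, and 1 for the interaction (Tmprss11g). With 1 mouse left out in turn they ranged from 0 to 13 under E2, 0 to 10 under E2+Pg, 1 to 15 on average, 0 to 1 and 0 to 3 for progesterone, and 0 to 1 for the interaction. Of the 9 genes called, Klk6 was called with each of the 19 mice left out, Htra1 with 16, Pcsk1 with 11, Tmprss11g with 10, Tmprss11a and Serpina3n with 5, and Htra3, Tmprss11e and Tmprss6 with 4. The cause of these shifts was not tested. The labels give no replicate numbers, so mice were blocked by slide only. Klk6, Pcsk1, Serpina3n and the Tmprss11 genes were near background in many mice, where a difference is compressed.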
